A study of Mus musculus with 24 samples.

Results

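The genes described here encode nuclear subunits of the mitochondrial respiratory chain and ATP synthase. They were taken from the deposited expression tables by name, as genes named Nduf followed by a, b, c, s or v and a number, Uqcr, Cox4 to Cox8, Atp5 or Sdha to Sdhd, with a deposited value of at least 0.1 in 1 genotype or more. Of 24319 genes in each table, 84 carried such a name. In whole liver 82 of them reached 0.1, and in isolated hepatocytes 80 did. By complex these were 37 genes of complex I, 4 of complex II, 8 of complex III, 16 of complex IV (14 in hepatocytes) and 17 of complex V. The name pattern also takes Atp5s and Atp5sl, which are related to ATP synthase by name and are no usual subunits, and it counts Ndufa4, now usually placed in complex IV, with complex I. Subunits that the pattern misses include Cyc1 of complex III and Ndufab1 of complex I.

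RNA came from 24 samples of 2-month-old male mice, as 8 groups of 3 biological replicates: whole liver and isolated hepatocytes, each from 4 genotypes. The genotypes were wild type (WT, strain C57/BL6), IkkB KO (Alb-Cre+;IkkBf/f), Shp2 KO (Alb-Cre+;Shp2f/f) and Double KO (Alb-Cre+;IkkBf/f;Shp2f/f). The albumin promoter directs the Cre recombinase to hepatocytes, so cells of a whole liver in which this promoter is never active keep both genes. Shp2 is a tyrosine phosphatase that promotes signalling through Ras and Erk, and IkkB is a kinase that activates NF-κB.

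Each deposited table holds 1 value per gene and genotype, made by Cuffdiff over the 3 libraries of a group. By that program's convention such a value is scaled to transcript length and library depth, but the tables do not name the unit. No value of a single library was used, so no standard deviation can be given, the read depth is unknown, and the p- and q-values of the authors' deposited table are the measure of replicate error. Differences below are log2(value + 1), knockout minus WT, and a gene is called where its deposited q is under 0.05. In both tables Ikbkb and Ptpn11, the genes of IkkB and Shp2, were lower in the knockouts labelled for them. Whole-liver Ikbkb was 15.7 in WT and 6.31 in Double KO, with 9.48 in IkkB KO and 14.2 in Shp2 KO, and Ptpn11 was 12.5 in WT and 6.09 in Double KO, with 10.1 in IkkB KO and 4.09 in Shp2 KO.

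Complex I (NADH dehydrogenase) and complex II (succinate dehydrogenase) pass electrons to ubiquinone, complex III passes them on to cytochrome c, and complex IV (cytochrome c oxidase) to oxygen. The proton gradient that complexes I, III and IV build drives complex V, the ATP synthase. Hepatocytes are rich in mitochondria and use this ATP for glucose, urea and bile acid synthesis. Most subunits are encoded in the nucleus, and their genes are known targets of the transcription factors NRF1, GABPA, YY1 and the oestrogen-related receptors. None of the 13 subunits encoded in mitochondrial DNA was matched by name, and they were not analysed here.

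Promoter windows are shown for 4 genes that were called lower in Double KO liver, 2 of complex I, 1 of complex II and 1 of complex V, as examples of these promoters. Sdhb and Atp5k hold matches to letters of GABPA or NRF1, and Ndufb3 and Ndufa13 hold matches to letters of SP1 or NF-Y only, both widespread promoter factors. Each window runs from 250 bases before to 50 bases after the RefSeq start site in build GRCm38.p6, on the gene's own strand, with motif matches in capitals. The windows lie at chr1:58586147-58586446 on the plus strand (Ndufb3), chr8:69901971-69902270 on the minus strand (Ndufa13), chr4:140961021-140961320 on the plus strand (Sdhb) and chr5:108434350-108434649 on the minus strand (Atp5k).
Ndufb3: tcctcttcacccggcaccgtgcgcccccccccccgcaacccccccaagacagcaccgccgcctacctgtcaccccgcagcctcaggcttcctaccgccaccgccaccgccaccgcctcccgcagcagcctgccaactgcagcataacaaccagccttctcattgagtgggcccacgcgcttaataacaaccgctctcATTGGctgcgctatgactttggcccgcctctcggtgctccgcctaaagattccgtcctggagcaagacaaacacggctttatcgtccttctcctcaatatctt
Ndufa13: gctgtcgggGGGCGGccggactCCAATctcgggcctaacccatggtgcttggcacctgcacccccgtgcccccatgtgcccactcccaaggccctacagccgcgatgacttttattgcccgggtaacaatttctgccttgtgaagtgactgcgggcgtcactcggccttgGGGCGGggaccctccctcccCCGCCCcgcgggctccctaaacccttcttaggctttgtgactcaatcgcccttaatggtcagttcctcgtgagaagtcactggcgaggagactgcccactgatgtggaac
Sdhb: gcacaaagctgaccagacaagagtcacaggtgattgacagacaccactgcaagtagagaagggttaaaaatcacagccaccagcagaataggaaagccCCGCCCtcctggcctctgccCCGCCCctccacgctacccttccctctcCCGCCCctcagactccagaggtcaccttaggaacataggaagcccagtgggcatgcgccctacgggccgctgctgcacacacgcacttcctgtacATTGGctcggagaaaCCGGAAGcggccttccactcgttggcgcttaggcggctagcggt
Atp5k: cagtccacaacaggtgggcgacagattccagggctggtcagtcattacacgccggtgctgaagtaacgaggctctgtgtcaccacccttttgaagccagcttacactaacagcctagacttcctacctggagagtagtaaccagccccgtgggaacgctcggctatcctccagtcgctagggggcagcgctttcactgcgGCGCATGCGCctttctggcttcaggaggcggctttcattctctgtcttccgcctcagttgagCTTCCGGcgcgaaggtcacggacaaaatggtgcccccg
Ndufb3 held a single CCAAT match, on the reverse strand. Ndufa13 held 3 matches to GGGCGG and 1 to CCAAT. Sdhb held 3 matches to GGGCGG, 1 to CCAAT and 1 to CCGGAAG. Atp5k held 1 match to CCGGAAG, and 2 overlapping matches to GCGCATGCG, 1 on each strand. All motifs were searched on both strands.

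Of the 82 genes, 68 had a RefSeq window. The letters CCGGAAG, the core bound by GABPA, stood in 22.1% of these windows against 9.12% of all 27025 windows in the table. GCGCATGCG, bound by NRF1, stood in 11.8% against 1.81%. AAGATGGCG, bound by YY1, stood in 10.3% against 1.49%, and TCAAGGTCA, bound by oestrogen-related receptors, in 2.94% against 0.407%. The more frequent GGGCGG of SP1 stood in 39.7% against 35.9%, and CCAAT of NF-Y in 44.1% against 37.9%. Among the 9 genes called lower in Double KO liver, 7 had a window. Of these 7 windows, 2 held CCGGAAG, 1 held GCGCATGCG, 1 held AAGATGGCG, 4 held GGGCGG, 4 held CCAAT and 0 held TCAAGGTCA. A match describes the letters of the window and does not show binding.

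In WT liver the subunit values ranged from 0.245 for Cox4i2 to 1631 for Atp5k, with a median of 216. On the deposited scale the highest member of each complex was Ndufa4 in complex I (1165), Sdhb in complex II (273), Uqcrq in complex III (1131), Cox6b1 in complex IV (1051) and Atp5k in complex V (1631). The isoforms made mainly in other tissues were low. The muscle isoforms Cox6a2 and Cox8b were 0.281 and 0.289 in WT liver, the lung isoform Cox4i2 was 0.245, and the testis isoform Cox6b2 was 0.764. Cox7a1, the muscle form of subunit 7a, was 7.12. Ndufa4l2, a paralogue of Ndufa4 known to be induced by hypoxia, was 2.73. Cox7b2 and Cox8c, both known from testis, were listed at 0 in every genotype of both tables, and 13 to 15 of the 16 complex IV members were tested in the comparisons with WT in liver.

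The single knockouts showed no called change among these genes in liver. In IkkB KO against WT, 79 members were tested by Cuffdiff and 0 were called, where 4.54% of all tested genes were called. At an unadjusted p under 0.05 the count was 1, Atp5s, against 10% of all tested genes. Its value in the authors' deposited table was 3.82 in WT and 3.92 in Double KO, with 5.62 in IkkB KO and 4.21 in Shp2 KO, with q = 0.161 for IkkB KO against WT. The IkkB KO value stood above the other genotypes, which lay close together. The median difference over the 82 members was 0.033, with quartiles of -0.053 and 0.083, and over all tested genes it was -0.014.

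In Shp2 KO against WT, 80 members were tested and 0 were called, where 9.33% of all tested genes were called. At an unadjusted p under 0.05 there were 3, all with higher values in Shp2 KO, against 17.3% of all tested genes. Uqcrq, a small subunit of complex III, was 1131 in WT and 1158 in Double KO, with 1135 in IkkB KO and 1523 in Shp2 KO, with q = 0.207 for Shp2 KO against WT in the authors' deposited table. Cox8a, the ubiquitous form of the smallest complex IV subunit, was 503 in WT and 595 in Double KO, with 564 in IkkB KO and 670 in Shp2 KO, with q = 0.202 in the authors' deposited table. Ndufa12, an accessory subunit of complex I, was 67.2 in WT and 58.9 in Double KO, with 84.5 in IkkB KO and 90.1 in Shp2 KO, with q = 0.150 in the authors' deposited table. Shp2 KO held the highest value of the 4 genotypes for these 3 genes and for 42 of the 82 members (51.2%). It was the highest for 29% of other tested genes with a mean of at least 100 and for 17.9% of all tested genes. The median difference over the members was 0.041 (quartiles -0.040 and 0.13), and over all tested genes -0.028. Between the IkkB KO and Shp2 KO livers 0 of 80 tested members were called, against 10.3% of all tested genes, and 1 had an unadjusted p under 0.05, against 18.5% of all tested genes.

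**Figure D1:**
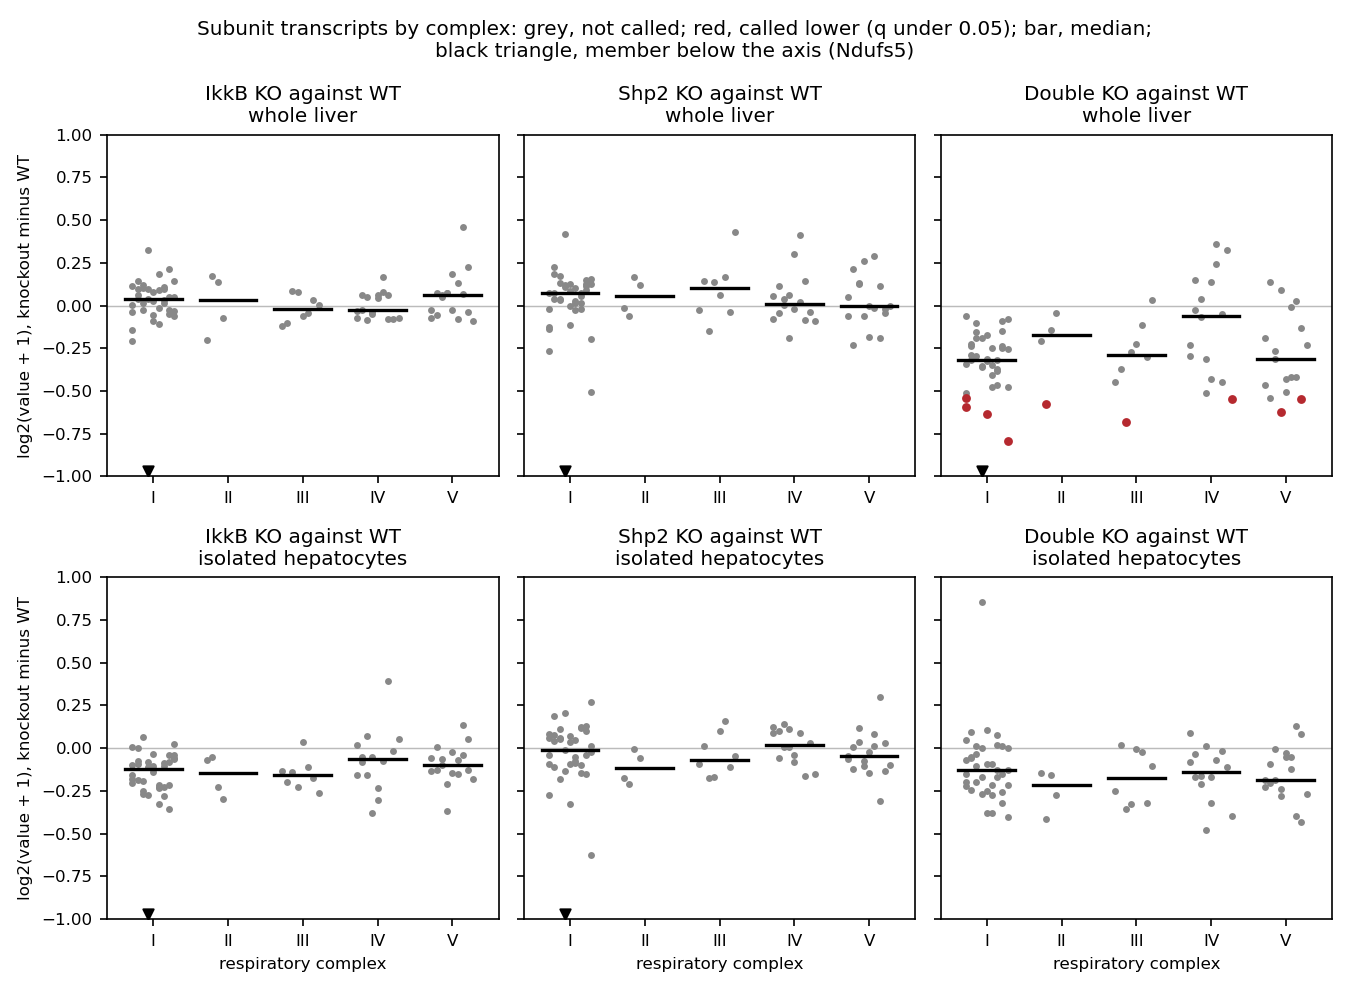
Difference from WT in log2(value + 1) for each subunit gene by complex (I to V), with 1 panel per knockout and table; points are genes, bars are medians, red points are genes called lower (deposited q under 0.05), and black triangles mark Ndufs5, which lies below the axis. In Double KO liver all 37 complex I points lie below 0 and 9 points are red, and the other panels hold no red point.

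The Double KO liver differed from this. Of 81 tested members 9 were called lower than in WT (11.1%) and 0 higher. Among all tested genes 6.62% were called lower and 18.1% in either direction. Of the 801 other tested genes with a mean of at least 100, 14.9% were called lower, a larger share than of the members. The 9 were Ndufb3, Ndufa13, Ndufa5 and Ndufa1 of complex I, Sdhb of complex II, Uqcrb of complex III, Cox6c of complex IV, and Atp5k and Atp5sl by name of complex V. At an unadjusted p under 0.05 there were 25 members (30.9%), all lower, and 13.1% of all tested genes were lower by that rule. With q under 0.01 there were 3 members, where 4.23% of all tested genes were called lower, and with q under 0.05 and a 1.5-fold difference there were 5, where 4.57% were. The values of the 9 genes in Double KO were between 57.6% and 68.5% of WT. In bulk RNA, fewer cells of a type and less RNA per cell cannot be told apart.

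The complex I genes called lower encode accessory subunits. Ndufb3, a subunit of the membrane arm, was 209 in WT and 121 in Double KO, with 201 in IkkB KO and 183 in Shp2 KO (q = 0.000955 against WT in the authors' deposited table). Ndufa13, also known as GRIM-19, was 189 in WT and 121 in Double KO, with 200 in IkkB KO and 174 in Shp2 KO (q = 0.0124 against WT in the authors' deposited table). For both genes Double KO stood well below the 3 other genotypes, which lay within a narrow range. Ndufa5 was 203 in WT and 134 in Double KO, with 221 in IkkB KO and 200 in Shp2 KO (q = 0.0192 against WT in the authors' deposited table). Ndufa1, a small subunit needed for assembly of the complex, was 324 in WT and 222 in Double KO, with 294 in IkkB KO and 270 in Shp2 KO (q = 0.0270 against WT in the authors' deposited table). Ndufa1 was also lower in each single knockout than in WT, without a call.

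All 37 complex I members were lower in Double KO than in WT liver, with a median difference of -0.32 and quartiles of -0.41 and -0.22. The 7 subunits of the catalytic core that are encoded in the nucleus carry the flavin and the iron-sulphur clusters. Their median difference was -0.26 and 0 of them were called, where 6.62% of all tested genes were called lower. Whether they differ from the other complex I members was not tested. Among the core subunits Ndufs8 was 153 in WT and 118 in Double KO. Ndufs1, the large iron-sulphur subunit, was 45.3 in WT and 42.9 in Double KO, with 44.3 in IkkB KO and 50.6 in Shp2 KO.

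Of the 4 genes of complex II, which links the citric acid cycle to the chain, 1 was called. Sdhb, its iron-sulphur subunit, was 273 in WT and 183 in Double KO, with 308 in IkkB KO and 262 in Shp2 KO (q = 0.0365 against WT in the authors' deposited table). Sdha, the flavin-carrying catalytic subunit, was 204 in WT and 177 in Double KO, with 178 in IkkB KO and 202 in Shp2 KO (q = 0.697 for Double KO against WT in the authors' deposited table). Double KO and IkkB KO shared the low value of Sdha, whereas Sdhb was low in Double KO and highest in IkkB KO. The membrane anchors Sdhc and Sdhd were 176 and 172 in Double KO against 194 and 178 in WT.

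In complex III, 7 of 8 members were below WT in Double KO liver and 1 was called. Uqcrb, the ubiquinone-binding protein, was 376 in WT and 234 in Double KO, with 399 in IkkB KO and 338 in Shp2 KO (q = 0.00315 against WT in the authors' deposited table). Uqcrfs1, the Rieske iron-sulphur protein at the catalytic site, was 200 in WT and 185 in Double KO, with 194 in IkkB KO and 224 in Shp2 KO. Uqcrq was the exception above WT, as given above.

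Complex IV was the most mixed. Of its 16 members 10 were below WT and 6 above in Double KO liver, with a median difference of -0.059 that became -0.23 when the isoforms of other tissues were left out. Cox6c was called: it was 725 in WT and 495 in Double KO, with 690 in IkkB KO and 680 in Shp2 KO (q = 0.0428 against WT in the authors' deposited table). Cox6b1, the highest member, was 1051 in WT and 769 in Double KO, with 996 in IkkB KO and 992 in Shp2 KO (q = 0.136 for Double KO against WT in the authors' deposited table). Several abundant subunits went the other way without a call. Cox6a1 was 811 in WT and 890 in Double KO, Cox8a was 503 and 595, and Cox5a was 332 and 341. The muscle isoform Cox6a2 was 0.281 in WT and 0.647 in Double KO (q = 0.298 in the authors' deposited table). The summed value of 7 skeletal or heart muscle markers was 1.38 in WT and 0.547 in Double KO.

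In complex V, 14 of 17 members were below WT in Double KO liver, with a median difference of -0.31. Atp5k, subunit e of the membrane part, was 1631 in WT and 1060 in Double KO, with 1713 in IkkB KO and 1566 in Shp2 KO (q = 0.00994 against WT in the authors' deposited table). Atp5sl was 30.0 in WT and 20.2 in Double KO, with 35.2 in IkkB KO and 29.0 in Shp2 KO (q = 0.0318 against WT in the authors' deposited table). The medians of the parts of the enzyme were as follows, and their difference was not tested. The 5 subunits of the F1 head had a median of -0.19, and its catalytic subunit Atp5b was 712 in WT and 785 in Double KO, with 685 in IkkB KO and 826 in Shp2 KO. The 4 subunits of the stalk had a median of -0.44 and 0 were called. Among them Atp5j was 680 in WT and 467 in Double KO, with 716 in IkkB KO and 578 in Shp2 KO (q = 0.101 for Double KO against WT in the authors' deposited table). Atp5g1, Atp5g2 and Atp5g3, which encode the same mature ring protein, were 160, 37.8 and 817 in Double KO against 214, 41.6 and 957 in WT.

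**Figure D2:**
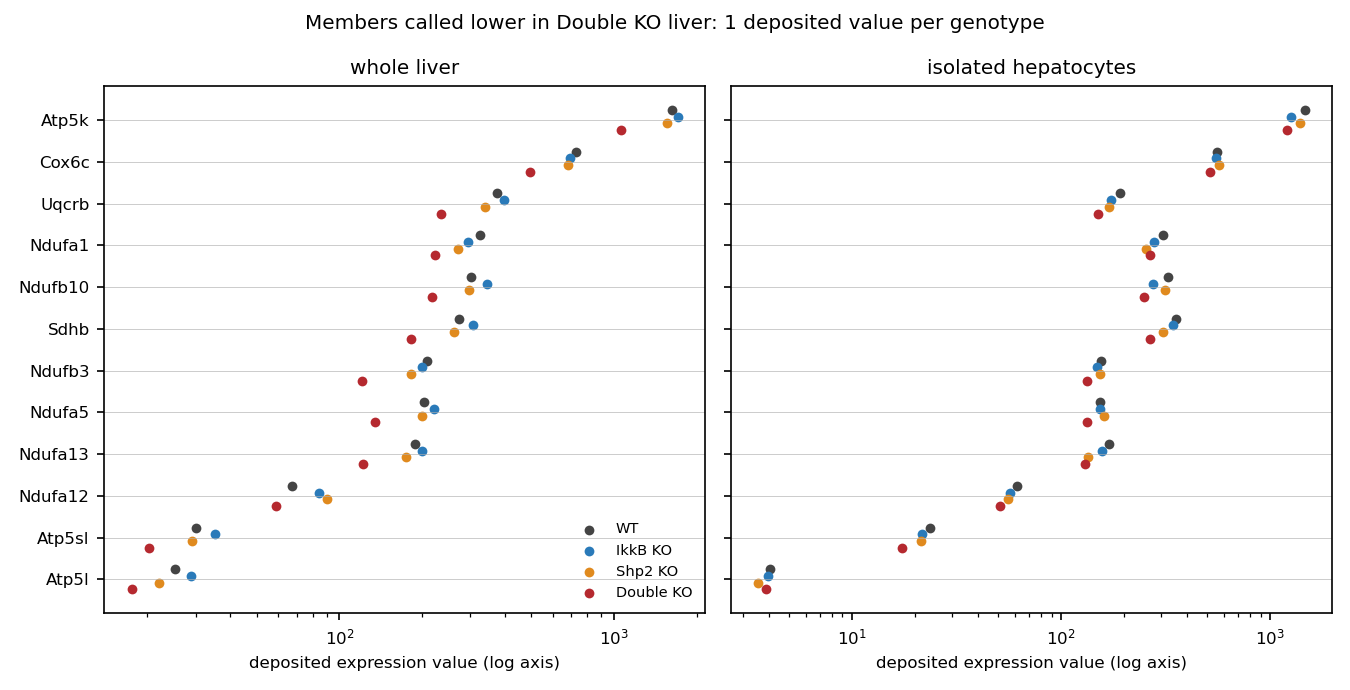
Deposited value in each genotype (log axis) for the 12 genes called lower in Double KO liver against WT, IkkB KO or Shp2 KO, in whole liver on the left and isolated hepatocytes on the right. In liver the Double KO point is the lowest for each gene, for example 121 against 183 to 209 for Ndufb3. The genes were chosen by their liver calls, which favours a low Double KO point in liver. In hepatocytes, which were not used for the choice, the 4 genotypes lie closer together, and this difference was not tested.

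The Double KO livers were also compared with each single knockout. These comparisons share the Double KO samples with the one above, so they do not repeat it. Against IkkB KO, 10 of 81 tested members were called lower (12.3%) and 0 higher, where 7.5% of all tested genes were called lower. At an unadjusted p under 0.05, 29 members were lower (35.8%), against 13.6% of all tested genes. Against Shp2 KO, 5 of 82 were called lower (6.1%) and 0 higher, where 2.83% of all tested genes were called lower. At an unadjusted p under 0.05, 32 members were lower (39%), against 7.14% of all tested genes. The median over the members, Double KO minus single knockout, was -0.31 for IkkB KO and -0.31 for Shp2 KO. Other tested genes with a mean of at least 100 were lower as well, with medians of -0.23 and -0.21. Over all tested genes the medians were -0.0020 and -0.0025. With q under 0.01 the Shp2 KO comparison kept 0 members, where 1.67% of all tested genes were called lower, and with a 1.5-fold difference 2, where 1.96% were. Atp5k, Ndufa5, Ndufb3 and Uqcrb were called in all 3 comparisons. Ndufa12 was called against IkkB KO (q = 0.0461) and against Shp2 KO (q = 0.0119) but not against WT (q = 0.678) in the authors' deposited table. The WT value of Ndufa12 lay below both single knockouts. Ndufb10 was 302 in WT and 217 in Double KO, with 344 in IkkB KO and 297 in Shp2 KO and was called against IkkB KO alone (q = 0.00994 in the authors' deposited table). Atp5l, subunit g of ATP synthase, was 25.2 in WT and 17.5 in Double KO, with 28.8 in IkkB KO and 22.1 in Shp2 KO and was likewise called against IkkB KO alone (q = 0.0230 in the authors' deposited table). Whether the Double KO value departs from what the single knockouts add up to was not tested, since each genotype has 1 value.

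Double KO was the lowest of the 4 genotypes for 68 of 82 members in liver (82.9%), while it was the lowest for 34.5% of all tested genes. The summed value of the members in Double KO liver was 82.3% of WT, against 100.4% in IkkB KO and 104.3% in Shp2 KO. By complex the Double KO sum was 79.9% of WT for complex I, 83.3% for complex II, 84.5% for complex III, 87.4% for complex IV and 79.8% for complex V.

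Other abundant transcripts lay below WT as well. The 801 other tested liver genes with a mean value of at least 100 had a median of -0.20 in Double KO against WT, compared with -0.29 for the members and -0.031 for all tested genes. Of these abundant genes 71.0% were below WT, 14.9% were called lower, and 57.4% had their lowest value in Double KO. Subtracting the median of all tested abundant genes, a centring chosen after the data were seen, left a median of -0.083 over the members. By complex it then was -0.11 for complex I, 0.035 for complex II, -0.078 for complex III, 0.15 for complex IV and -0.10 for complex V. The sign of complexes II and IV thus turned with all members counted. For complex IV this starts from the median of -0.059, which includes the isoforms of other tissues. Without those isoforms its median before centring was -0.23, and that of all tested abundant genes was -0.21.

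**Figure D3:**
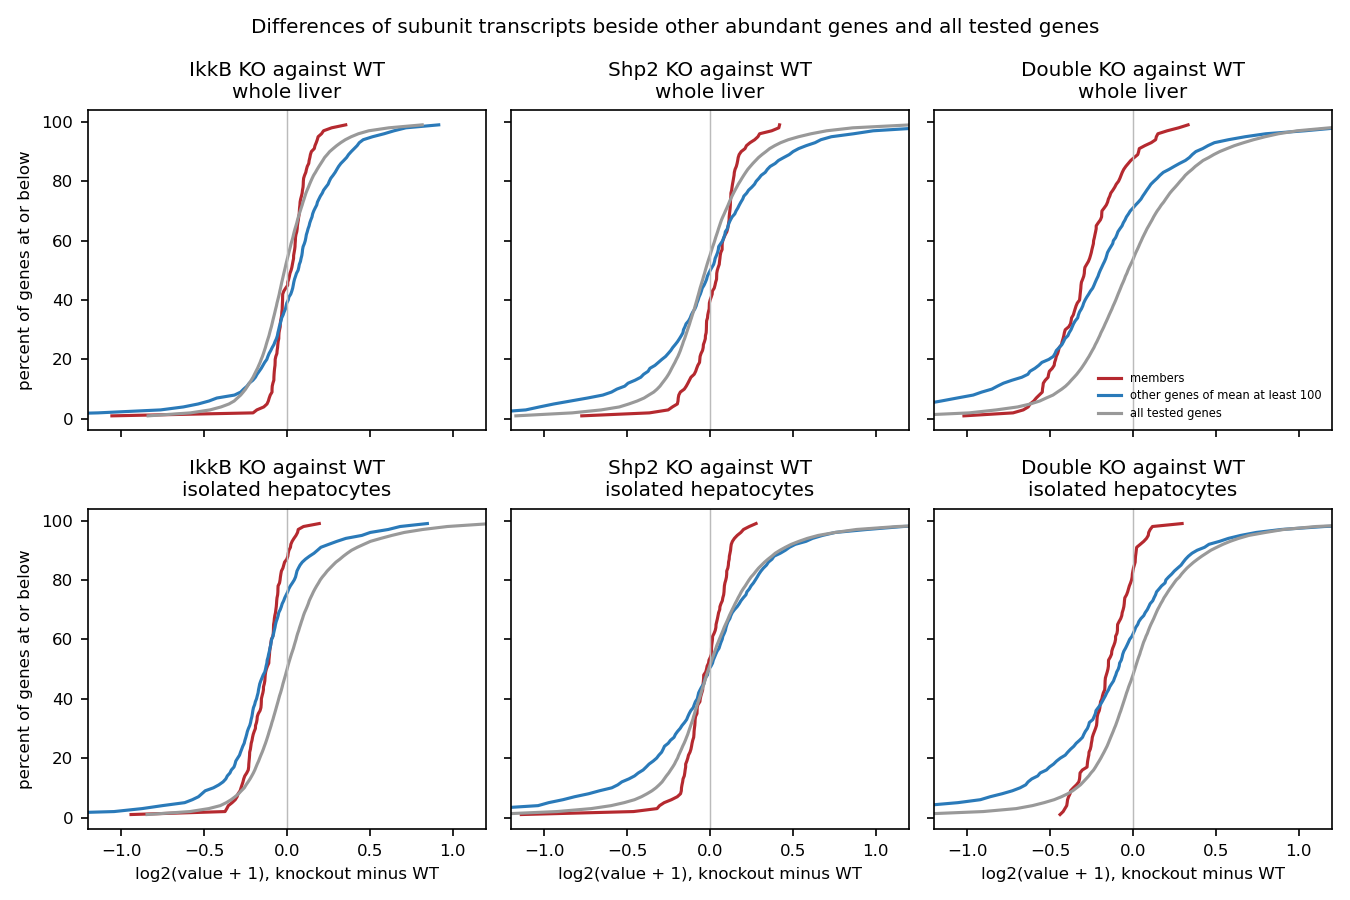
Cumulative share of genes (percent at or below) against the difference from WT in log2(value + 1), with 1 panel per knockout and table; red, subunit genes; blue, other tested genes of mean at least 100; grey, all tested genes. In Double KO liver the middle of the red and blue curves lies left of the grey one, with medians of -0.29, -0.20 and -0.031.

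Markers of other cell types moved in the same livers. In Double KO against WT liver 9 of 9 tested macrophage markers were called higher, with a summed value of 253 in WT and 631 in Double KO. Of all tested genes 1492 of 12940 were called higher in that comparison. Of 8 stellate cell or fibroblast markers 4 were called higher and 1 lower (sums 161 and 221), and 3 of 3 tested neutrophil markers were higher (11.7 and 28.5). Bile duct markers had 1 of 5 called higher (57.4 and 143). Spp1 made up most of these sums, at 52.5 in WT and 137 in Double KO. The other bile duct markers lay between 0.662 and 1.68 in WT and between 0.780 and 2.00 in Double KO. Endothelial markers had 1 of 7 higher (77.5 and 77.0), and of 5 tested lymphocyte markers 0 were called (4.46 and 4.42). Of the hepatocyte markers, Ttr was 9726 in WT and 5731 in Double KO, Cyp2e1 was 4549 and 2909, and Cps1 was 616 and 574, and 0 of these 3 were called. Albumin was listed at 0 in every genotype of both tables and Apoa1 in some, so they give no check of the cell type. Their part in the subunit values was not tested.

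In isolated hepatocytes 0 members were called in the 5 comparisons analysed, and IkkB KO against Shp2 KO was not analysed here. In Double KO against WT 78 members were tested by Cuffdiff, 13.6% of all tested genes were called, and 2 members had an unadjusted p under 0.05, as did 20.1% of all tested genes. Cox5b, a subunit of the matrix side of complex IV, was 223 in WT and 160 in Double KO, with 171 in IkkB KO and 225 in Shp2 KO (q = 0.0671 against WT in the authors' deposited table). Its values formed a lower pair, IkkB KO and Double KO, and a higher pair. Atp5sl was 23.7 in WT and 17.4 in Double KO, with 21.6 in IkkB KO and 21.5 in Shp2 KO (q = 0.115 against WT in the authors' deposited table). The 9 genes called lower in Double KO liver stood at 73.2% to 92.5% of WT in Double KO hepatocytes. Ndufb3 was 155 in WT and 133 in Double KO hepatocytes, with 149 in IkkB KO and 153 in Shp2 KO (q = 0.516 against WT in the authors' deposited table). Atp5k was 1461 in WT and 1205 in Double KO hepatocytes, with 1263 in IkkB KO and 1384 in Shp2 KO (q = 0.386 against WT in the authors' deposited table). A difference between liver and hepatocytes in these effects was not tested, and the 9 genes were chosen by their liver calls.

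The medians over 80 members in hepatocytes were -0.15 for Double KO, -0.11 for IkkB KO and -0.021 for Shp2 KO, against 0.010, 0.0015 and -0.0080 for all tested genes. Other abundant genes had medians of -0.089, -0.13 and -0.0056 in this order. In Double KO 66 of 80 members were below WT (82.5%), as were 61.7% of other abundant genes and 48.1% of all tested genes. The Double KO median was -0.13 in complex I, -0.22 in complex II, -0.18 in complex III, -0.14 in complex IV and -0.18 in complex V. In IkkB KO 69 of 80 were below WT (86.2%), as were 75.3% of other abundant genes and 49.8% of all tested genes. Of 78 tested members 0 were called, with 0 at an unadjusted p under 0.05, where 9.41% of all tested genes were called and 13.9% had that p. In Shp2 KO 43 of 80 were below WT (53.8%), as were 50.5% of other abundant genes and 51.3% of all tested genes. Again 0 of 78 were called and 0 had an unadjusted p under 0.05, where 11.7% of all tested genes were called and 17.4% had that p. Double KO against IkkB KO gave 0 of 78 called with 0 at an unadjusted p under 0.05, where 11.4% of all tested genes were called and 17.2% had that p. Against Shp2 KO 0 of 78 were called and 1 had that p, Cox5b, where 6.76% of all tested genes were called and 11.5% had that p. The lowest genotype was IkkB KO for 34 of 80 members (42.5%) and Double KO for 35 (43.8%). Among other abundant genes it was IkkB KO for 46.4% and Double KO for 27.3%. Among all tested genes these shares were 25.2% and 21.4%. After centring on abundant genes the medians were 0.017 in IkkB KO and -0.048 in Double KO.

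Non-hepatocyte markers differed between the hepatocyte preparations too. Macrophage markers summed to 94.4 in WT and 242 in Double KO, with 350 in IkkB KO and 191 in Shp2 KO. Of the 9 tested, 8 were called higher in Double KO, 9 in IkkB KO and 7 in Shp2 KO. Stellate cell or fibroblast markers summed to 54.2 in WT and 89.0 in Double KO, with 189 in IkkB KO and 88.1 in Shp2 KO. Endothelial markers summed to 35.5 in WT and 65.9 in Double KO, with 71.7 in IkkB KO and 40.3 in Shp2 KO. All 8 stellate and all 7 endothelial markers were called higher in IkkB KO. Whether this bears on the subunit medians was not tested.

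Base composition moved with the IkkB KO differences in hepatocytes. Over 77 tested members with a transcript in GENCODE, Spearman's correlation coefficient between the G+C content and the difference from WT was -0.52 in hepatocytes, and over 78 members in liver it was 0.063. Pearson's r in hepatocytes was -0.17, with Ndufs5 far below the other points. Spearman's coefficient was -0.18 over other abundant genes and -0.24 over all tested genes in the same hepatocyte comparison. For the members it was -0.35 in Shp2 KO and -0.27 in Double KO hepatocytes. These are correlations across genes, which share libraries and are not independent replicates, and no p is given. The part of base composition in the differences was not tested.

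**Figure D4:**
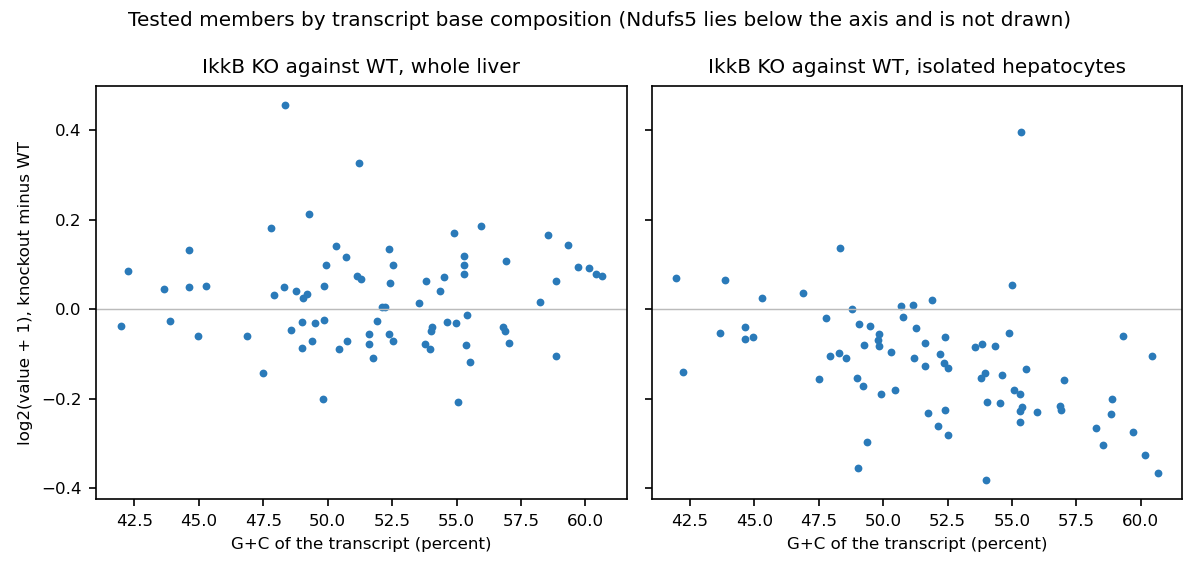
Difference from WT in log2(value + 1) in IkkB KO against the G+C content of the transcript (percent), 1 point per tested subunit gene, in whole liver (left) and isolated hepatocytes (right), without Ndufs5. The points descend with G+C in hepatocytes (Spearman's coefficient -0.52 with Ndufs5 included) and show no slope in liver (0.063).

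Ndufs5, an accessory subunit of complex I, had the most irregular values of the set. In liver it was 15.9 in WT and 3.40 in Double KO, with 0.0130 in IkkB KO and 3.93 in Shp2 KO. In hepatocytes it was 6.56 in WT and 12.7 in Double KO, with 0.0787 in IkkB KO and 0.0380 in Shp2 KO. None of its comparisons with WT was called, with q from 0.414 to 0.628 in the authors' deposited table. The order of the genotypes differed between the tables, apart from a low IkkB KO in both.

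The WT groups of both tables gave similar levels for most members, although the tables were normalized separately. The liver value was a median of 1.09 times the hepatocyte value, with quartiles of 0.922 and 1.29. Over 4-fold differences were seen for 4 of 80 members, all higher in liver. Atp5g2 was 41.6 in WT liver and 0.0634 in WT hepatocytes, Cox7c was 361 and 11.1, Atp5g1 was 214 and 34.2, and Atp5l was 25.2 and 4.05. Across all genes of the tables, 44 were at least 10 in WT liver and under 1 in WT hepatocytes. Many subunit genes are known to have processed copies elsewhere in the genome, and how shared reads were counted is not given in the sources used here, so levels of these genes are uncertain. Within each table these 4 genes stood apart less: Cox7c was 361 in WT and 267 in Double KO liver, with 372 in IkkB KO and 356 in Shp2 KO, and in hepatocytes 11.1 in WT and 11.2 in Double KO, with 10.7 in IkkB KO and 12.1 in Shp2 KO.

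**Figure D5:**
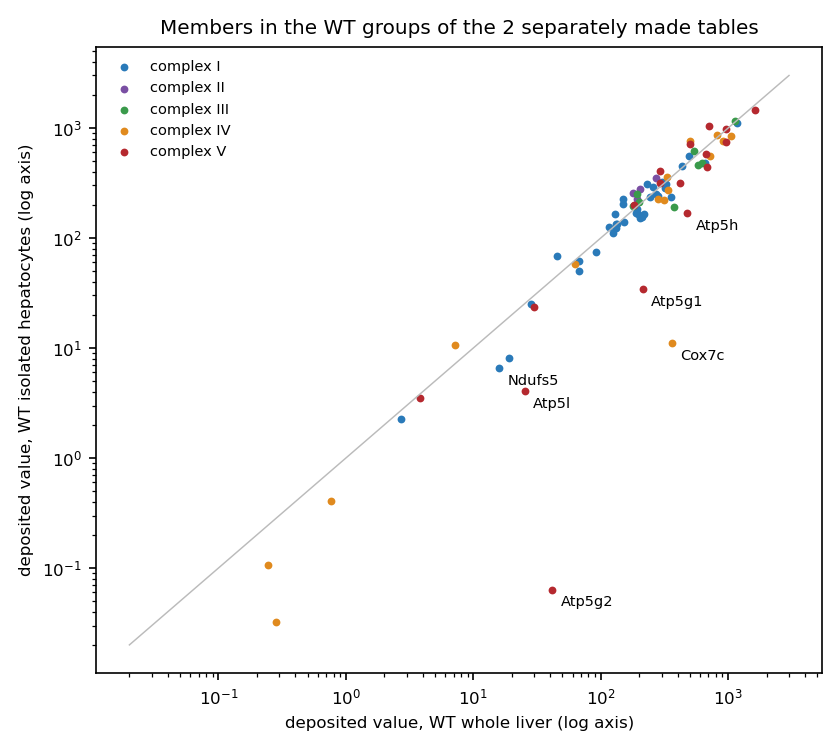
Deposited value of each subunit gene in WT whole liver (horizontal, log axis) and WT isolated hepatocytes (vertical, log axis), coloured by complex, with the line of equal values; the tables were normalized separately. Most points follow the line, and Atp5g2 (41.6 and 0.0634), Cox7c (361 and 11.1), Atp5g1 (214 and 34.2) and Atp5l (25.2 and 4.05) lie below it.

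Genes outside the name pattern that serve the chain, most of them without belonging to it, were counted from fixed lists. Of 34 tested assembly factors 2 were called lower in Double KO liver and 0 higher, with a median difference of -0.20. Over all tested genes 6.62% were called lower and the median was -0.031, and over other abundant genes the median was also -0.20. Lrpprc, which stabilises mitochondrial mRNAs, was 31.9 in WT and 21.3 in Double KO, with 31.0 in IkkB KO and 25.6 in Shp2 KO (q = 0.0254 against WT in the authors' deposited table). Ndufaf4, an assembly factor of complex I, was 12.1 in WT and 8.43 in Double KO, with 11.2 in IkkB KO and 11.4 in Shp2 KO (q = 0.0457 against WT in the authors' deposited table). In hepatocytes 1 of the 34 was called higher in Double KO and 0 lower, where 13.6% of all tested genes were called. This was Cox19, a copper-handling factor for complex IV, at 42.3 in WT and 81.5 in Double KO (q = 0.00048 in the authors' deposited table).

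Of 12 regulators of mitochondrial biogenesis, 1 was called higher and 1 lower in Double KO liver, where 18.1% of all tested genes were called. Ppargc1a, the coactivator PGC-1α that drives many of these genes, was 0.948 in WT and 2.53 in Double KO, with 1.499 in IkkB KO and 1.63 in Shp2 KO (q = 0.000955 against WT in the authors' deposited table). Gabpb1, the partner of GABPA, was 4.47 in WT and 2.75 in Double KO, with 4.03 in IkkB KO and 3.33 in Shp2 KO (q = 0.0347 against WT in the authors' deposited table). In hepatocytes Ppargc1a was instead lowest in Double KO: it was 2.72 in WT and 1.82 in Double KO, with 3.48 in IkkB KO and 3.72 in Shp2 KO (q = 0.0583 for Double KO against WT in the authors' deposited table). In hepatocytes Esrra, the oestrogen-related receptor α, fell in Double KO: it was 23.1 in WT and 14.1 in Double KO, with 22.6 in IkkB KO and 24.9 in Shp2 KO (q = 0.0206 against WT in the authors' deposited table). The 8 cytochromes c and electron carriers outside the name pattern included the subunits Cyc1 of complex III and Ndufab1 of complex I. In liver Cyc1 was 271 in WT and 246 in Double KO, and Ndufab1 was 5.45 and 6.84. Of these 8, 0 were called in Double KO liver and 1 in Double KO hepatocytes, where 18.1% and 13.6% of all tested genes were called. That gene was Coq10b, which binds coenzyme Q, at 27.0 in WT and 14.5 in Double KO (q = 0.00263 in the authors' deposited table).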

How the data were processed

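PolyA RNA was sequenced from TruSeq v2 libraries, and per the submitters' processing notes the authors used FastQC and Cuffdiff with build mm9. Their versions, the aligner and the annotation were not given in the sources used here. The 2 deposited tables hold, per gene and pair of genotypes, the authors' expression value of each genotype (unit not named), a deposited log2 fold change, which was not used, a deposited p-value and q-value, and a status. There were 0 columns of single samples, so no test was run here, depth per sample is unknown, and no interval or error could be computed.

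A gene was tested where its status was OK and its value at least 0.1 in 1 of the 2 genotypes, and called at q under 0.05. Differences are log2(value + 1). Abundant genes have a mean of at least 100 over the 4 genotypes. Calculations used Python 3.11.15, numpy 2.4.6 and pandas 2.3.3, and were tested on simulated data. G+C content came from GENCODE mouse transcripts and promoters from RefSeq, matched by symbol. Alternatives changed the call threshold, the adjustment of p, filters, pseudocount, centring and membership.

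Members and lists were chosen with earlier results of these data known. Genes were named by a rule: every called member, per complex the highest WT value and the largest differences, isoforms of other tissues, catalytic subunits, and up to 4 called genes per other list. Members and genes named beyond that rule, such as Cox7c in all genotypes, Sdhc, Sdhd and Ndufs5, were chosen after their values were seen. Values of 1 member are not reported here by name.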

Additional observations from a re-analysis of the deposited data

How the results depend on the processing

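No paired analysis was possible because the deposited tables hold no value per replicate, and leaving out a replicate could not be run for the same reason. The depth of each sample is unknown, so what it limits cannot be stated. With an unadjusted p under 0.05, members called in liver against WT numbered 25 in Double KO, 1 in IkkB KO and 3 in Shp2 KO. By that rule 13.1% of all tested genes were lower in Double KO, and 10% and 17.3% were called in IkkB KO and Shp2 KO. In Double KO liver 29 members were lower against IkkB KO and 32 against Shp2 KO, where 13.6% and 7.14% of all tested genes were. In hepatocytes the members called numbered 2 in Double KO against WT and 1 against Shp2 KO, where 20.1% and 11.5% of all tested genes had that p. With q under 0.01, Double KO liver kept 3 calls against WT and 0 against Shp2 KO, where 4.23% and 1.67% of all tested genes were called lower. With an added 1.5-fold minimum the counts were 5 and 2, where 4.57% and 1.96% of all tested genes were called lower. The median of complex IV in Double KO liver was -0.23 both with a mean of at least 10 and with usual liver subunits alone.

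Centring on abundant genes, added after the data were seen, moved the Double KO liver medians to -0.083 over all members and to -0.11, 0.035, -0.078, 0.15 and -0.10 in complexes I to V. The 0.15 of complex IV includes the isoforms of other tissues, without which its median before centring was -0.23. This centring used all members in each complex. It moved those of IkkB KO hepatocytes to 0.017 over all members and to 0.012, -0.015, -0.025, 0.068 and 0.035. It moved those of Double KO hepatocytes to -0.048 over all members and to -0.029, -0.11, -0.076, -0.036 and -0.082. The cause was not tested. Adjusting p within each comparison, other low-value filters on the calls, both other pseudocounts and centring on all tested genes left every count within 1.5 times and moved no median by over 0.1.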

Other observations

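Idh2 and Ucp2, which act beside the respiratory chain, rose in the Shp2 KO and Double KO groups of both tables, where 0 of its subunits were called higher. Ucp2 was also called higher in IkkB KO hepatocytes, so only Idh2 was high in the Shp2-deficient genotypes alone. Of 14 citric acid cycle genes, Idh2, the mitochondrial NADP-dependent isocitrate dehydrogenase, was called higher in Double KO liver and 0 were called lower. Among all tested genes 18.1% were called in either direction in that liver comparison with WT. Idh2 was 43.0 in WT and 108 in Double KO liver, with 58.5 in IkkB KO and 110 in Shp2 KO, and q was 0.000955 for Shp2 KO and for Double KO against WT in the authors' deposited table. In hepatocytes it was 68.8 in WT and 122 in Double KO, with 62.5 in IkkB KO and 119 in Shp2 KO (q = 0.00162 for Shp2 KO and 0.00089 for Double KO against WT in the authors' deposited table). Both Shp2-deficient genotypes were high and the other genotypes low in each table. Suclg2, a succinate-CoA ligase subunit, stood at 43.8 in WT against 65.0 in Shp2 KO liver (q = 0.0303 in the authors' deposited table).

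Of 8 tested nucleotide, phosphate and uncoupling carriers, 2 were called higher and 1 lower in Double KO liver. There 18.1% of all tested genes were called in either direction. Ucp2, an uncoupling protein family member that macrophages also express, was 23.7 in WT and 66.3 in Double KO liver, with 32.7 in IkkB KO and 58.4 in Shp2 KO (q = 0.000955 for Double KO against WT in the authors' deposited table). In hepatocytes it was 6.35 in WT and 25.4 in Double KO, with 17.9 in IkkB KO and 18.9 in Shp2 KO, with q = 0.00048 for each knockout against WT in the authors' deposited table. The macrophage markers were called higher in the same hepatocyte knockouts, and their part was not tested. Slc25a4, the ADP/ATP carrier of muscle and heart, was 7.56 in WT and 11.9 in Double KO liver (q = 0.0340 in the authors' deposited table). Slc25a25, an ATP-Mg/phosphate carrier, was 119 in WT and 73.2 in Double KO liver, with 76.8 in IkkB KO and 126 in Shp2 KO, low in both genotypes that lack IkkB (q = 0.0307 for IkkB KO and 0.0124 for Double KO against WT in the authors' deposited table). In hepatocytes Slc25a25 was 124 in WT and 89.1 in Double KO, with 125 in IkkB KO and 85.1 in Shp2 KO, so that both Shp2-deficient genotypes were the lower ones there, without a call (q = 0.152 for Double KO, 0.987 for IkkB KO and 0.117 for Shp2 KO against WT in the authors' deposited table).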
